A study of Mus musculus with 6 samples.

Results

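The transcripts of 10 genes that mark the choroid plexus were followed, mouse by mouse, in RNA-seq libraries of the cerebral cortex. The members are Ttr, Folr1, Kl, Clic6, Prlr, Sostdc1, Enpp2, Aqp1, Otx2 and F5, taken by gene symbol, and they make up 10 of the 55421 genes in the deposited files. The libraries came from the microdissected cortex of 3 young adults aged 6 months (mice 10, 11 and 17) and of 3 old adults aged 24 months (mice 2, 4 and 5). All were wild-type (WT) C57BL/6J males, killed under isoflurane, and each library was made from 10 ng of total RNA of powdered frozen tissue. The study compared the ages to describe ageing of the cortex, and the values here ask how much choroid plexus transcript each cortex sample held.

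The choroid plexus is a fringe of tissue that hangs in the brain ventricles and is not part of the cortex. Its epithelium secretes the cerebrospinal fluid, carries folate, thyroid hormone and other cargo between blood and fluid, and makes transthyretin, encoded by Ttr, in great amounts. The cortex lies apart from it, so its transcripts in a cortex sample are often read beside the dissection. In bulk tissue, fewer cells of a type and less RNA per cell cannot be told apart.

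Levels between genes are compared in TPM, a share of all transcripts corrected for gene length. Levels of 1 gene between mice are given as counts and as CPM, counts scaled to library sizes that edgeR's TMM method had corrected. The libraries held 29495379 to 36494240 counts, and all 10 members passed the minimum of 10 counts over the 6 libraries. TMM factors were 0.921, 0.946 and 0.940 at 6 months (mice 10, 11 and 17) and 1.10, 1.07 and 1.04 at 24 months (mice 2, 4 and 5). Intervals are exact 95% Poisson intervals, or an exact 95% binomial interval for a ratio of 2 mice, and cover counting error only. The 3 replicates of an age are numbered mice. Genes that mark cortical projection neurons summed to 1078 to 1217 TPM, led by Lamp5 and Neurod6 (both 317 TPM on average), against 147 to 214 TPM for genes of the striatum (with Ppp1r1b the most abundant), 378 to 507 TPM for the dentate gyrus list (led by Calb1 and Stxbp6, at 296 and 93.9 TPM) and 149 to 227 TPM for the thalamus list (led by Calb2 and Ramp3). The level of genes that other organs use was also measured: 1831 receptors of smell, taste and pheromones averaged 0.0720, 0.0792 and 0.0835 TPM at 6 months and 0.315, 0.265 and 0.195 TPM at 24 months (mice 2, 4 and 5). This sensory receptor level was thus higher in every 24-month library, and it is set beside the low members below. The study reports sensory perception as the main process of the genes it found up-regulated with age. The level is therefore not a reference that is neutral to age.

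Of the members, Enpp2 and Ttr stood far above the other 8. Enpp2 averaged 309.7 TPM over the 6 mice and ranked 480 among all genes, Ttr averaged 75.5 TPM and ranked 2486, and the other 8 averaged between 0.208 (Otx2) and 1.57 TPM (Sostdc1). Summed over those 8 genes, a library held 306 to 463 counts. In each mouse Ttr was 5.28 to 15.1 times as abundant in TPM as the 8 together.

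Ttr, the carrier of thyroid hormone and of retinol-binding protein in cerebrospinal fluid, lies on chromosome 18 (ENSMUSG00000061808). It had 1148 counts in 6-month mouse 10, 369 in mouse 11 and 565 in mouse 17, and 1102, 1153 and 466 counts in the 24-month mice 2, 4 and 5. On the TPM scale these were 109.7, 31.9 and 51.3 at 6 months and 109.1, 106.9 and 43.9 at 24 months. The mice thus lay in 2 sets of 3, with mouse 10 of the young and mice 2 and 4 of the old high, and the sets did not follow age. The highest mouse exceeded the lowest by 3.48 times in CPM (interval of the ratio 3.10 to 3.93), and on that scale both were 6-month animals. Counting error was small against this range, as CPM was 37.2 (35.1 to 39.5) in mouse 10 and 10.7 (9.63 to 11.8) in mouse 11. Which mouse was highest depended on the scaling. As a share of all counts, Ttr was 0.00374% in mouse 2 and 0.00356% in mouse 4, above 0.00343% in mouse 10.

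**Figure D1:**
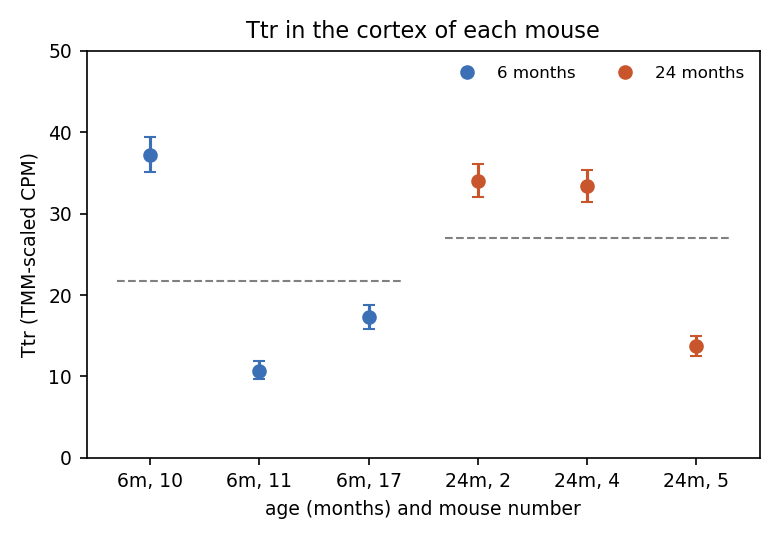
Ttr in TMM-scaled CPM (vertical axis, from 0) for each mouse (horizontal axis), with exact 95% Poisson intervals as bars and the mean of each age as a dashed line. Mouse 10 at 6 months (37.2) and mice 2 and 4 at 24 months (34.0 and 33.3) are high, and mice 11, 17 and 5 are between 10.7 and 17.3, so both ages hold high and low animals.

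Between the ages, Ttr was 64.3 ± 40.5 TPM at 6 months and 86.7 ± 37.0 TPM at 24 months (SD, n = 3 each). Its log2 fold change of 0.32 (SE 0.43) did not pass the edgeR quasi-likelihood test (adjusted p = 0.645 over all genes tested). An exact permutation test of CPM between the ages gave p = 0.9, two-sided, and with 3 mice an age its smallest possible value is 0.1. The estimate rested on single animals: it was 0.95 (adjusted p = 0.181) without mouse 10 and 0.01 without mouse 11.

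Folr1 encodes the folate receptor of the choroid plexus epithelium, which moves folate into the cerebrospinal fluid (chr7:101858331-101870788, minus strand, GRCm38). It had 38, 14 and 19 counts in mice 10, 11 and 17 and 28, 35 and 34 counts in mice 2, 4 and 5. As for Ttr, mouse 10 was highest and mouse 11 lowest, but mouse 5, low for Ttr, was not low for Folr1. The ages overlapped, and the log2 fold change was 0.39 (SE 0.37, adjusted p = 0.501, edgeR quasi-likelihood test). It was 0.96 without mouse 10 and 0.12 without mouse 11.

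Kl encodes klotho, the co-receptor of the hormone FGF23, and is among the transcripts used to recognise this epithelium (chr5:150952607-150993817, plus strand). Its counts were 111, 106 and 160 at 6 months and 120, 173 and 96 at 24 months. Mice 17 and 4 were highest and mouse 5 lowest, a range of 1.77 times in CPM that is not the order of Ttr. The log2 fold change was -0.0033 (SE 0.24), and its sign changed with the scaling.

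Clic6, a protein of the chloride intracellular channel family (chr16:92485736-92541243, plus strand), had 22, 54 and 42 counts in the young adults and 29, 49 and 45 counts at 24 months. It was lowest in mice 10 and 2, which were both high for Ttr. Its age difference was 0.02 on the log2 scale (SE 0.31), and the ages overlapped.

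Prlr, which encodes the prolactin receptor (chr15:10177238-10349180, plus strand), had 53, 58 and 45 counts in the young adults and 90, 99 and 71 counts at 24 months. Every 24-month mouse lay above every 6-month mouse, at 0.639 ± 0.105 against 0.365 ± 0.0428 TPM (SD, n = 3 each). The log2 fold change was 0.69 (SE 0.20), the unadjusted p was 0.00704 and the adjusted p was 0.0698 by edgeR's quasi-likelihood test. The sensory receptor level moved the same way, and a gene of the length of Prlr at that level would have held 9.74, 11.9 and 11.9 counts in the young adults and 41.1, 37.0 and 26.8 counts at 24 months. With that level taken from the counts of every gene, an alternative chosen after seeing the data, the log2 fold change of Prlr was 0.45 (adjusted p = 0.443), and 0.125% of all genes passed 10% FDR. The call was also lost when any mouse but mouse 5 was left out, with log2 fold changes of 0.60 to 0.77, in fits that called 0.0% to 7.72% of all genes. The transcript shares 203 exonic bases with the overlapping gene Gm21973.

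Sostdc1 encodes a secreted antagonist of BMP and Wnt signals (chr12:36314139-36318452, plus strand). It had 27, 20 and 14 counts in the young adults and 35, 33 and 22 counts at 24 months. Its 3 highest mice in CPM were the same as those of Ttr, mice 2, 4 and 10. The ages overlapped, with a log2 fold change of 0.51 (SE 0.33, adjusted p = 0.311, edgeR quasi-likelihood test), which was 0.81 without mouse 10 and 0.30 without mouse 17.

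Aqp1 encodes the water channel of the fluid-facing membrane of the epithelium (chr6:55336432-55348555, plus strand), and F5 encodes coagulation factor V (chr1:164151838-164220277, plus strand). Aqp1 had 12, 21 and 19 counts in the young adults and 16, 23 and 15 at 24 months, and F5 had 44, 31 and 28 counts in the young adults and 46, 41 and 48 at 24 months. For these 2 members the intervals of the highest and the lowest mouse overlapped. For the other 8 members those intervals were apart, narrowly for Sostdc1 (0.717 and 0.751 CPM) and Otx2 (0.209 and 0.236 CPM). Each pair was picked as the extremes of the 6 mice, which favours separation. The log2 fold changes were 0.01 (SE 0.32) for Aqp1 and 0.34 (SE 0.26) for F5, of which neither passed the test. That of F5 was 0.21 without mouse 17 and 0.61 without mouse 10.

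Otx2 encodes a homeodomain transcription factor of the choroid plexus, known for a protein that leaves the epithelium and reaches cortical interneurons (chr14:48657677-48673819, minus strand). It was the rarest member, with 4, 2 and 8 counts in the young adults and 14, 10 and 9 counts at 24 months, and the ages did not overlap in CPM. The log2 fold change was 1.17 (SE 0.52, unadjusted p = 0.0474, adjusted p = 0.158, edgeR quasi-likelihood test), and it was 1.79 without mouse 17 and 0.83 without mouse 11. In TPM it lay at 0.613 to 2.44 times the sensory receptor level of the same library, so it could not be told from that level, and with the level taken off, its log2 fold change was -0.14. Its exons share 168 bases with Otx2os1 and Gm49154.

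As Otx2 encodes a DNA-binding factor of this epithelium, the 250 bases before the gene starts of the members were read for TAATCC, the core letters of the sites of its homeodomain class, and for the same on the other strand, GGATTA. The RefSeq promoter table (GRCm38.p6) held 5 of the 10 members (Kl, Prlr, Aqp1, Otx2 and F5) with 10 start windows. The letters occurred in 1 of the 10 windows, at a start of Otx2 itself, and in 6.25% of the 32851 windows of all genes. Its 30 bases, at chr14:48665303-48665332 on the minus strand, are shown with the match, which begins 211 bases upstream of that start, in capitals. The windows before Prlr, the member with the lowest adjusted p, and before Kl, a marker with 96 to 173 counts per mouse, hold no match. The first is chr15:10176988-10177237 and the second chr5:150952357-150952606, both on the plus strand.
Otx2 site: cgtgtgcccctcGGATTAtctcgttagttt
Prlr: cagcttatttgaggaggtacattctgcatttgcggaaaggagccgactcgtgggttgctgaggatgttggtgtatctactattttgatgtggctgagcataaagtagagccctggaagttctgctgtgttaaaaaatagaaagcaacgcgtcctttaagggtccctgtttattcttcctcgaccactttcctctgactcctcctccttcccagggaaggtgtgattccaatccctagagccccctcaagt
Kl: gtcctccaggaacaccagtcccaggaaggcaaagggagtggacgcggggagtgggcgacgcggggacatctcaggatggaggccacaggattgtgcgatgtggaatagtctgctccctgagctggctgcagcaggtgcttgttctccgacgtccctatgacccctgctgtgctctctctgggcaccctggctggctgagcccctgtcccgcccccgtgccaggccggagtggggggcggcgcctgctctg
A match here is a run of letters, and neither it nor its absence was tested for binding.

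**Figure D2:**
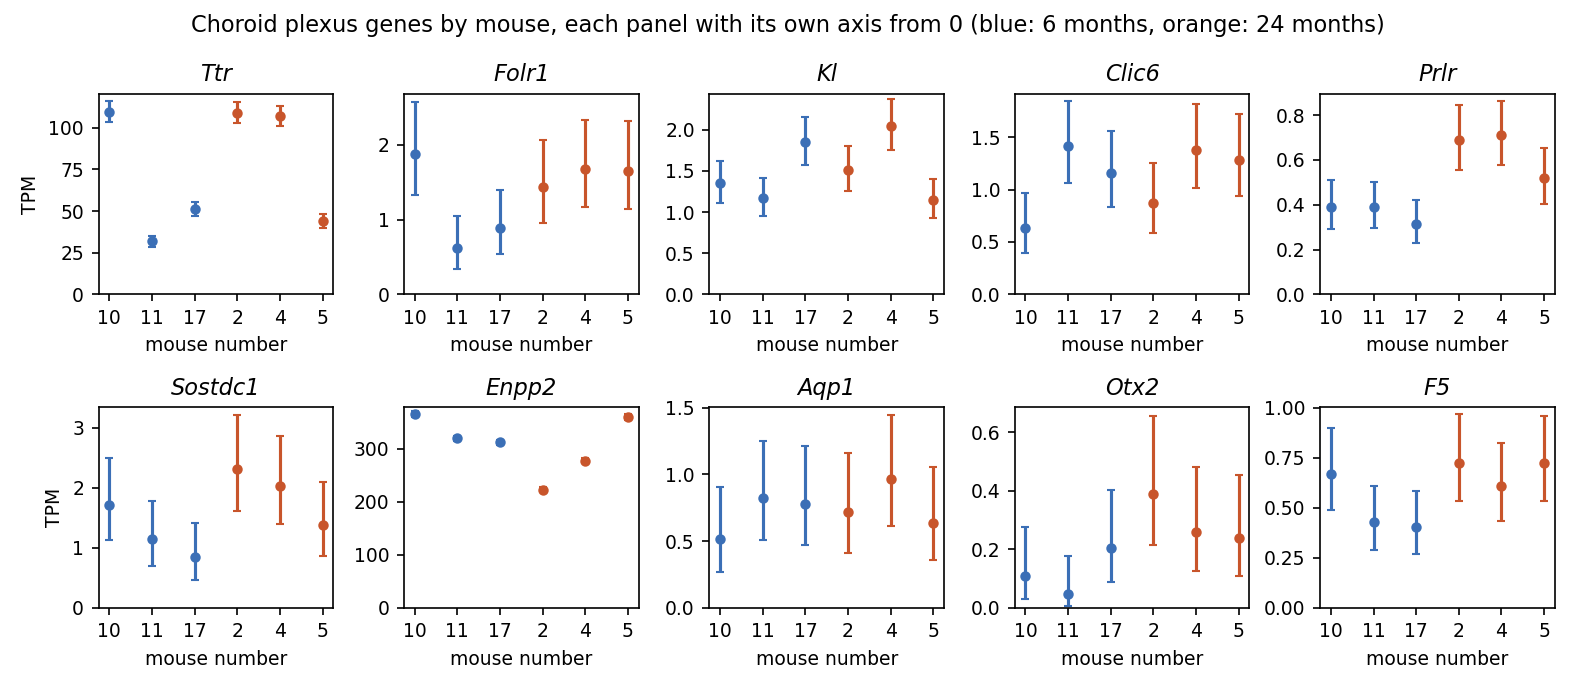
TPM (vertical axes, each from 0 with its own scale) of the 10 genes in the 3 mice of 6 months (blue) and the 3 mice of 24 months (orange), with exact 95% Poisson intervals as bars. Ttr and Enpp2 are measured tightly, whereas genes such as Otx2, with 2 to 14 counts, have wide bars, and Prlr and Otx2 are the genes whose ages do not overlap.

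Enpp2, or autotaxin, makes the signalling lipid lysophosphatidic acid and is a transcript of oligodendrocytes as well as of the choroid plexus (chr15:54838901-54952892, minus strand). It had 18661, 18017 and 16778 counts in the young adults and 10975, 14601 and 18582 counts at 24 months. Mouse 2 was the lowest and mouse 10 the highest, a range of 1.79 times in CPM, and mouse 5 lay among the 6-month animals. The log2 fold change was -0.33 (SE 0.16, adjusted p = 0.185, edgeR quasi-likelihood test), and it was -0.52 (adjusted p = 0.0378) without mouse 5, -0.17 (adjusted p = 0.448) without mouse 2 and -0.14 with library totals only. Mouse 2, high for Ttr, was also the lowest mouse for all 12 genes of the oligodendrocyte list, such as Mbp with 18299 counts against 36976 to 67184 in the other mice, while 20.9% of all genes tested were lowest there. The oligodendrocyte list summed to 1956, 2481 and 1578 TPM at 6 months and 936, 2179 and 2839 TPM at 24 months, and its part in the level of Enpp2 was not tested. The Enpp2 to Ttr ratio in TPM ran from 2.04 in mouse 2 to 10.0 in mouse 11. Enpp2 shares 345 exonic bases with Gm26684 on the other strand.

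Over the members, 0 of 10 passed 1% FDR, as did 0.0% of the 32905 genes tested by the quasi-likelihood test of edgeR. The likelihood ratio test, the exact test and DESeq2 also called 0 members at 1% FDR, where they called 5.18%, 3.41% and 0.836% of the genes with an adjusted p. The study also used edgeR, with its own filter and without naming the test, and did report differentially expressed genes at 1% FDR. What set its result apart from the quasi-likelihood fit here was not tested. At 10% FDR 1 member, Prlr, was higher at 24 months, against 10.0% of all genes called higher and 8.33% called lower. Prlr and Otx2 reached an unadjusted p under 0.05, both higher, against 17.6% of all genes. The same 2 members had no overlap between the ages, a pattern found in the higher direction in 20.0% of all genes and in either direction in 36.3%. The median log2 fold change was 0.33 over the members and 0.15 over all genes tested, and 8 of 10 members were fitted higher against 58.4% of all genes. The members' shares called higher, under the unadjusted threshold and without overlap in the higher direction were near those of the whole table. Their median and share fitted higher were above it, in only 10 genes, and that difference was not tested. When only library totals were used for scaling, the median was 0.53 over the members and 0.34 over all genes, with 9 of 10 members fitted higher.

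**Figure D3:**
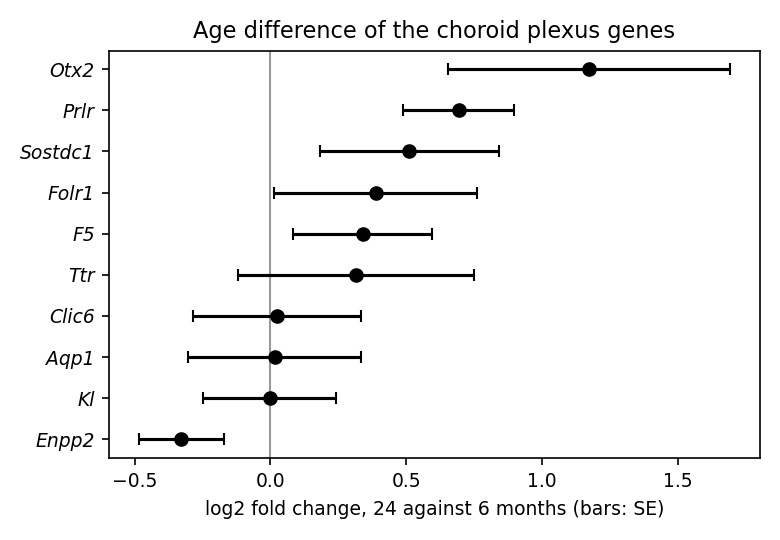
Log2 fold change of each member at 24 against 6 months (horizontal axis) from the edgeR quasi-likelihood fit. Bars are the SE derived from the F statistic of the test, and a line marks 0. The values run from -0.33 for Enpp2 to 1.17 for Otx2, and only for Prlr (0.69) was the adjusted p under 10%.

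Set against the sensory receptor level of their own library, 6 of the 8 low members, all but Folr1 and Otx2, stood higher in every 6-month mouse than in any 24-month mouse, as did 62.5% of all genes tested, and the level itself was higher at 24 months. Kl was 14.7 to 22.1 times that level at 6 months and 4.80 to 7.70 times at 24 months, and F5 was 4.86 to 9.33 times and then 2.29 to 3.70 times. Ttr, at 225 times or more, and Enpp2, at 708 times or more, were far above it in every mouse. Otx2 and Prlr were the members nearest to it at 24 months, at 0.983 to 1.24 times and 2.19 to 2.68 times.

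**Figure D4:**
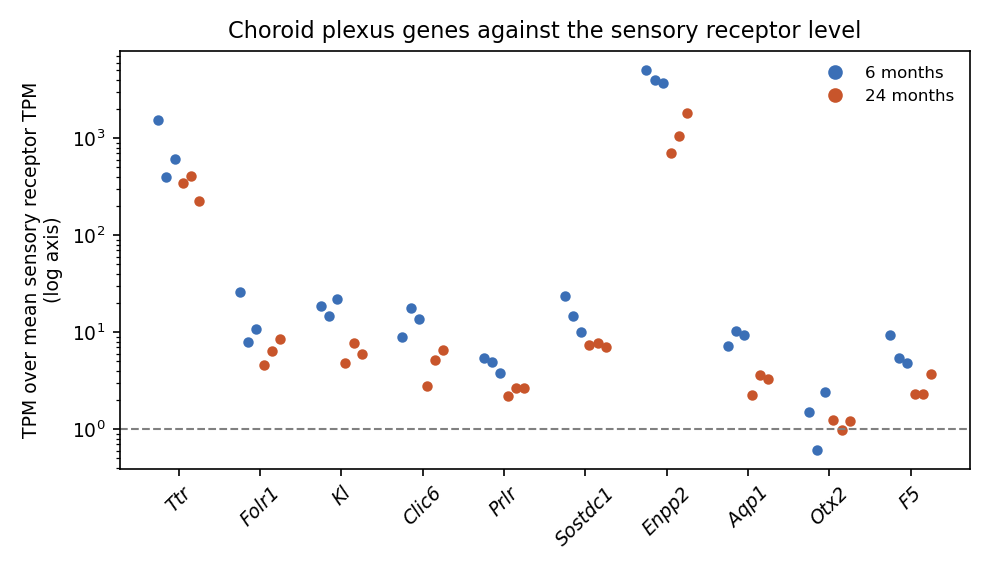
TPM of each member divided by the mean TPM of 1831 sensory receptor genes in the same library (vertical log axis), with 1 point per mouse at 6 months (blue) and 24 months (orange) and a dashed line at 1. Otx2 lies around the line at 0.613 to 2.44, Prlr at 2.19 to 5.44, and Ttr and Enpp2 lie at 225 or more in all mice.

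Whether the members rose and fell together was examined as likeness to Ttr over the 6 mice, by Pearson's r of log2 CPM. As the mice lay in 2 sets of 3 on Ttr, r measures likeness here, and a relation within a set could not be tested. Sostdc1 was the most alike (r = 0.78, Spearman's rho 0.66), then Folr1 (r = 0.73, rho 0.71), F5 (0.58), Prlr (0.52), Otx2 (0.49) and Kl (0.49). Aqp1 (-0.24), Enpp2 (-0.39) and Clic6 (r = -0.72, rho -0.83) ran the other way. By exact permutation the smallest p for r was 0.0903 (Sostdc1), which is 0.371 after adjustment over the 9 relations, and 0 of 9 passed. Without the 2 mice farthest from the median of Ttr, mice 11 and 5, 4 mice were left, 3 of them alike and high in Ttr, so r then set mouse 17 against the rest. It was 0.96 for F5, 0.95 for Sostdc1, 0.93 for Folr1, 0.67 for Prlr, -0.06 for Otx2, -0.18 for Enpp2, -0.42 for Aqp1, -0.54 for Clic6 and -0.61 for Kl. The summed level of the 8 members other than Ttr and Enpp2 was 7.27, 6.04 and 6.44 TPM at 6 months and 8.64, 9.67 and 7.59 TPM at 24 months. The sum varied 1.60 times over the mice where Ttr varied 3.44 times in TPM. Every 24-month sum lay above every 6-month sum. The sensory receptor level was also higher in every 24-month library, and its part in the sum was not tested.

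The genes most like Ttr were sought above a minimum level and range. Among 4510 non-member genes with at least 1 TPM on average and a range of log2 CPM of at least 1, the 10 highest r were those of Gm37421 (0.95), Gm22140, Gm6394, Gm6133, Gm15956, Rny3, Gm37020, C030015A19Rik, Etv6 (0.92) and Glra3 (0.90). Several of them had few counts, such as Gm37421 with 1 to 4 counts per mouse. Of the 30 other choroid plexus genes described below, 9 were eligible, and the nearest was Cldn1 (r = 0.35) at rank 764. The 21 others were outside the search. Their r ran from 0.89 (Steap1), 0.87 (Lbp), 0.78 (Kcne2) and 0.76 (Cldn2) down to -0.50 (Slc29a4) and -0.52 (Col8a1). Several between these were also above Cldn1, such as Slc4a5 (0.67), and others were below 0, such as Htr2c (-0.39). Steap1, Lbp, Kcne2 and Cldn2 each averaged under 1 TPM, and the 21 were looked up after the data were seen. Etv6, a transcription factor of the ETS family, had 333, 231 and 248 counts in the young adults and 455, 442 and 274 counts at 24 months. Glra3, a glycine receptor subunit, had 215, 163 and 182 counts and then 296, 239 and 152 counts. In CPM, Etv6 was highest in mice 2 and 4 and Glra3 in mice 2 and 10, over narrower ranges than Ttr (2.10 and 2.04 times).

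A list of 30 other genes of the choroid plexus epithelium was followed in the same way. Its 5 most abundant genes were Igfbp2 (57.4 TPM on average), Cab39l (33.7 TPM), Msx1 (13.3 TPM), Ace (10.8 TPM) and Slc13a4 (10.2 TPM). Igfbp2 encodes a binding protein of insulin-like growth factors, Msx1 a homeodomain factor and Ace the angiotensin-converting enzyme. Igfbp2 had 830, 946 and 1172 counts in the young adults and 668, 1112 and 1053 counts at 24 months. Slc13a4, a sulfate transporter, had 217, 455 and 694 counts in the young adults and 196, 660 and 327 counts at 24 months. It was thus lowest in mice 2 and 10, where Ttr was high. That pair was lowest in 1 member, Clic6, in 3 of the 30 genes and in 10 of 14 meningeal genes, against 4.67% of all genes tested. The sum over the list was 168, 183 and 224 TPM at 6 months and 157, 217 and 174 TPM at 24 months.

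The order of mice in Ttr (mice 2, 4 and 10 the 3 highest) was found in 2 of the 10 members, Ttr itself among them, and in 4 of the 30 other choroid plexus genes (Kcne2, Steap1, Cldn2 and Lbp), against 4.83% of all genes tested. Kcne2, a potassium channel subunit of the epithelium, had only 5 to 20 counts per mouse, and Cldn2, a claudin of its tight junctions, 4 to 27 counts. Another order, with mice 17 and 4 the 2 highest, was found in 7 of the 30 genes (Kcnj13, Slc13a4, Msx1, Wfikkn2, Ecrg4, Ace and Igfbp2) and in the member Kl, against 3.79% of all genes. This was also the order of 13 of 14 genes of the meninges and of the choroid stroma, Ptgds and Slc6a13 among them. The meninges are the membranes over the cortex, and several genes of the choroid plexus list are known there too. The summed level of that meningeal list was 636, 1119 and 1838 TPM in mice 10, 11 and 17 and 581, 1604 and 953 TPM in mice 2, 4 and 5. Ptgds, prostaglandin D synthase, made up most of it, with 526 to 1699 TPM, and the list did not follow Ttr: Ttr was high in mice 10 and 2, where the meningeal list was lowest. Its part in the levels of Kl, Slc13a4 and the others was not tested.

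**Figure D5:**
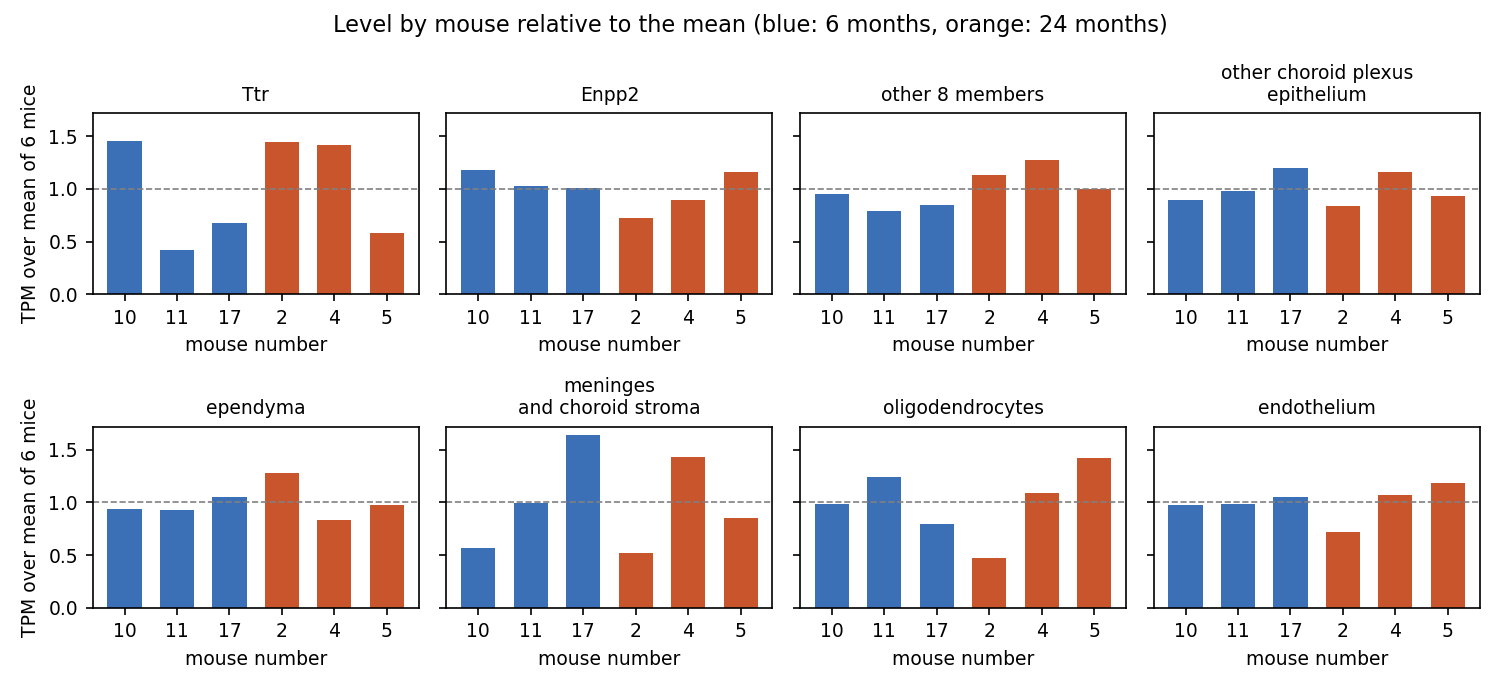
TPM of Ttr, of Enpp2, of the other 8 members summed and of 5 marker lists summed, each divided by its mean over the 6 mice (vertical axis, from 0), in mice of 6 months (blue) and 24 months (orange). Ttr is 1.42 to 1.45 times its mean in mice 10, 2 and 4, the meningeal list is highest in mice 17 (1.64) and 4 (1.43), and the oligodendrocyte list is lowest in mouse 2 (0.469).

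The ependyma, the ciliated lining of the ventricles that adjoins the choroid plexus, was measured with 12 genes led by Rsph1 and Dynlrb2. Its sum was 29.5, 29.2 and 33.1 TPM at 6 months and 40.5, 26.3 and 30.9 TPM at 24 months. Mouse 2 was highest and mouse 4 lowest, although both were high for Ttr. Of its 11 tested genes, 0 had the same 3 highest mice as Ttr, against 4.83% of all genes tested, a share that 11 genes cannot tell from 0. Endothelial genes, led by Itm2a and Slc2a1, summed to 297 to 491 TPM, and red blood cell genes, led by Hbb-bs and Hba-a1, to 278 to 443 TPM, both lowest in mouse 2. Between the ages 0 genes of these and the other tissue lists passed 1% FDR. At 10% FDR, where 10.0% of all genes were higher and 8.33% lower, the projection neurons and the striatum each had 3 of 10 genes lower. The dentate gyrus had 1 of 10 higher and 2 lower, the thalamus 1 of 10 lower, red blood cells 1 of 5 lower and the ependyma 2 of 11 higher. The lists of meninges (14 genes), oligodendrocytes (12) and endothelium (10) had 0.

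Between the ages, 0 of the 30 other choroid plexus genes passed 1% FDR, against 0.0% of all genes, with 4 higher and 4 lower at an unadjusted p under 0.05 and a median log2 fold change of 0.11. At 10% FDR 3 were higher (Tmem72, Krt8 and Slc4a5, against 10.0% of all genes) and 4 were lower (Htr2c, Slc29a4, Car12 and Sulf1, against 8.33%). These 7 were chosen after their values were seen. The higher ones were rare: Tmem72 had 3, 7 and 3 counts in the young adults and 32, 30 and 19 at 24 months. Krt8, an epithelial keratin, had 0, 0 and 1 counts in the young adults and 9, 10 and 3 at 24 months. Slc4a5, a sodium bicarbonate cotransporter of the epithelium, had 4, 1 and 5 counts and then 17, 12 and 7 counts. The lower ones were more abundant, and cortical cells are known to use some of them, such as the serotonin receptor Htr2c. It had 792, 968 and 803 counts in the young adults and 494, 530 and 559 counts at 24 months, with a log2 fold change of -0.74 (SE 0.11, adjusted p = 0.04997). With the sensory receptor level taken from the counts, 25 of the 30 genes kept enough counts to be tested and 0 of these passed 10% FDR, against 0.125% of all genes. Tmem72, Krt8 and Slc4a5 were not among the 25. The folds of the lower genes stayed about as large, at -0.64 for Htr2c, -0.72 for Slc29a4, -0.89 for Sulf1 and -0.60 for Car12, compared with -0.74, -0.79, -0.93 and -0.71 before. The likelihood ratio test, the exact test and DESeq2 called 6, 4 and 2 of the 30 at 1% FDR. They called 5.18%, 3.41% and 0.836% of all genes with an adjusted p.

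The proteins that work with the members were followed as a list of 31 genes, of which 23 reached 1 TPM on average. Those of transthyretin's cargo were Rbp4, its retinol-binding partner (90.1 TPM), Stra6, which takes up retinol, and the thyroid hormone transporter Slco1c1 (32.7 TPM). Folate is also carried by Slc19a1 and Slc46a1 (14.2 and 19.0 TPM). Klotho binds with Fgfr1 (18.9 TPM), and the prolactin receptor signals, as does the related Ghr, through Jak2, Stat5a and Stat5b. Sostdc1 acts on Lrp4, Lrp6 and Bmp4, of which Lrp4 was at 17.9 TPM. The product of Enpp2 is sensed by Lpar1 (35.6 TPM), Lpar4 and Lpar6 and broken down by Plpp1 and Plpp3 (73.8 and 211 TPM). Aqp4, the astrocyte water channel (44.1 TPM), Clic4 (69.8 TPM), the cortical factor Otx1 (3.56 TPM) and F8 are relatives of Aqp1, Clic6, Otx2 and F5. Aqp4, Clic4 and Otx1 were thus each above the member of their own family. F8, at 0.891 to 1.27 TPM over the mice, was likewise above F5, at 0.405 to 0.727 TPM. Of the 31, 0 passed 1% FDR, and at 10% FDR 2 were higher (Folr2 and F10, each with 0 to 1 counts per 6-month mouse, against 10.0% of all genes) and 3 were lower (Rbp4 and Slc46a1 among them, against 8.33%), the named ones chosen after their values were seen. The log2 fold change of Rbp4 was -0.39 (SE 0.13, adjusted p = 0.0893, edgeR quasi-likelihood test), with 1047, 1401 and 1261 counts in the young adults and 1020, 1071 and 809 at 24 months.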

How the data were processed

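RNA-seq libraries of the cortex of 6 mice were analysed. Per the labels and the study's methods, the authors trimmed reads with Trim Galore 0.6.4, mapped them to GRCm38 with STAR 2.7.3a and counted reads on exons with featureCounts (Subread 2.0.0), without strand. They deposited 1 count per gene and mouse, 29495379 to 36494240 in total. The methods state that reads with several positions were split as fractions, yet all counts were whole numbers, so how such reads entered them is not known. The authors also computed the deposited TPM values from counts and exonic length.

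Age was tested here in R 4.3.3 by the quasi-likelihood method of edgeR 4.0.16. The SE given is the size of the log2 fold change divided by the square root of the test's F statistic. TMM factors were used, a gene entered with a sum of 10 counts or more, and no covariate was fitted, with Benjamini-Hochberg adjustment over all 32905 genes. DESeq2 1.42.0 was an alternative. Log2 CPM for likeness used a prior count of 2. Scripts were tested on simulated data. Python 3.11.15 with scipy 1.17.1 gave the exact tests and intervals. Gene positions and overlaps came from GENCODE vM21. The sequences are from RefSeq.

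The members and gene lists were chosen with earlier results of these data known. Named genes are the members, the 5 most abundant other choroid plexus genes and any past 1% FDR, the 10 genes most like Ttr, the 2 most abundant genes of each marker list, and partners of at least 1 TPM on average. Some genes that this rule names are not reported here. Alternatives tried were other tests, scalings and filters, each mouse left out in turn, and the sensory receptor level (mean TPM of genes named Olfr, Vmn, Tas and Taar) taken from the counts, which was chosen after seeing the data.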

Additional observations from a re-analysis of the deposited data

How the results depend on the processing

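The count of members past 1% FDR stayed at 0 under all 14 alternatives. In some it had little room to move. In the quasi-likelihood test 0.0% of all genes passed 1% FDR, and without mouse 10 or mouse 4 0.0% passed even 10% FDR. At 10% FDR the count of members was 1. It moved to 2 with the likelihood ratio test (Prlr and Otx2), which called 22.8% of all genes, and to 0 with the sensory receptor level taken off. Without single mice it ranged from 0 to 2 (0 without any of mice 10, 11, 17, 2 and 4, and 2 without mouse 5). Of the other choroid plexus genes, 0 passed 1% FDR, as did 0.0% of all genes. The likelihood ratio test called 6 of them (5.18% of all genes), the exact test called 4 (3.41%) and DESeq2 called 2 (0.836%). The cause was not tested. At 10% FDR 7 of these choroid plexus genes passed in the quasi-likelihood test, against 3 after filterByExpr, which tests fewer genes. The count was 0 of the 25 tested with the sensory receptor level taken off, and 0 to 8 without single mice (0 without mouse 10, 11 or 4, and 1 without mouse 2). The same fits called 7.51% of all genes after filterByExpr, 0.125% with the level taken off and 0.0% to 25.6% without single mice, against 18.4%. The range of Ttr was 3.44 to 3.70 times under 3 other scalings and 2.72 to 3.48 times without single mice, the lowest without mouse 11. The count of members whose likeness to Ttr passed stayed at 0 of 9 under 4 alternatives, and r kept its sign in all 36 cases.

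None of the log2 fold changes that changed sign had passed 10% FDR in the quasi-likelihood test of edgeR, and that of Otx2 (1.17) passed only in the likelihood ratio test (adjusted p = 0.0990). Kl was 0.0062 with DESeq2, 0.0063 with its size factors, 0.19 with library totals, 0.11 after filterByExpr and 0.035 without the filter, and it was -0.23 to 0.21 without single mice. With the sensory receptor level taken off, Clic6 was -0.076, Aqp1 -0.24, Otx2 -0.14, Cab39l 0.013 and Igfbp2 0.032. Without single mice Clic6 was -0.23 to 0.32, Aqp1 -0.17 to 0.18, Ace -0.24 to 0.052, Igfbp2 -0.22 to 0.080, Msx1 -0.27 to 0.43 and Slc13a4 -0.81 to 0.20. With library totals Ace was 0.041, Cab39l 0.067 and Igfbp2 0.080, and Igfbp2 was 0.0043 after filterByExpr. Otx2 was not tested after filterByExpr, which removed it.

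No paired analysis was possible because the ages share no mouse number. With 3 mice an age, 8 members at 2 to 173 counts per mouse carry wide intervals, and no outlier test was run in groups of 3.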
